A study of Mus musculus with 23 samples.

Results

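The circadian clock genes Arntl, Clock, Per1, Per2, Per3, Cry1, Nr1d1, Nr1d2, Dbp and Tef were followed through RNA-seq of mouse colon and colon tumors. They were chosen by gene symbol, with earlier results of these data known, and all 10 were found among the 55450 genes of the count table. All 10 passed the filter on low counts in each comparison, and the lowest count of any of them in a library was 90, for Dbp. The study compared gut bacteria that differ in bile salt hydrolase (BSH), the bacterial enzyme that removes the amino acid from conjugated bile acids, in mice prone to colon tumors. All mice were male C57BL/6 Cdx2Apc f/w animals, in which Cre is driven by the promoter of Cdx2, a gene of the intestinal epithelium, and 1 copy of the tumor suppressor gene Apc is floxed. All were 6 to 8 weeks old at the start, drank antibiotic water before colonization and received a 60% high-fat diet. Colonization was with B. fragilis 638R carrying an empty vector (BF BSHlow) or with the same strain carrying a bsh gene (BF BSHhigh), 2 times a week by the labels. Normal colon after 2 weeks gave 4 BSHlow and 4 BSHhigh libraries, non-tumor colon after 12 weeks gave 4 and 4, and tumors after 12 weeks gave 4 and 3. The libraries summed to between 12401388 and 17903008 expected counts.

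In the core of the clock, the proteins of Arntl (BMAL1) and Clock pair and switch on genes that hold E-boxes, among them the Per and Cry genes, whose proteins come back to inhibit the pair. The same pair switches on Nr1d1 and Nr1d2 (REV-ERB alpha and beta), nuclear receptors that repress Arntl, and the PAR bZIP factors Dbp and Tef, which carry the rhythm to output genes through D-boxes. In the gut, as in other organs, Arntl RNA and Dbp RNA peak at opposite times of the day, and feeding can shift both.

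The hour at which each tissue was collected is not labelled. A difference in collection time and a difference in clock gene expression at the same time therefore cannot be told apart in any comparison between groups here. The labels do not tie a tumor or a non-tumor sample to a mouse either, so p-values measure the spread between these samples. The header over the 3 BSHhigh tumors repeats names of BSHlow tumors. They were assigned as a group through the values that the study lists for them, and are called replicates a, b and c. Levels are CPM, counts relative to library size after TMM scaling over all 23 libraries, and a gene was called at an adjusted p under 0.05 in the quasi-likelihood test of edgeR, adjusted over all genes tested. As the RNA was taken from tissue, fewer cells of a type and less RNA per cell cannot be told apart.

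Apc, the floxed gene, was at 123, 112, 190.3 and 90.4 CPM in BSHlow and at 87.7, 107, 114 and 102 CPM in BSHhigh non-tumor colon. Normal colon after 2 weeks held 129.5, 69.5, 107 and 136 CPM in BSHlow and 114, 79.0, 67.4 and 95.1 CPM in BSHhigh mice. The tumors held 12.3, 10.5, 11.1 and 8.75 CPM in BSHlow and 25.1, 28.6 and 12.5 CPM in BSHhigh mice, and all 7 were below every other library. Apc fell in tumors, with a log2 fold change of -3.61 (SE 0.23, edgeR adjusted p = 3.79e-06) in BSHlow and -2.23 (SE 0.27, adjusted p = 0.000265) in BSHhigh mice.

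Because the clock genes are known to be read through short motifs near their starts and many of them moved together, their promoters were searched. RefSeq windows of 300 bases (GRCm38.p6, 250 before to 50 after a start) were at hand for 9 of the 10 genes, in 14 windows. The motifs were the E-box CACGTG, the E-prime-box CACGTT, which shares its first letters with the E-box, the D-box TTATGNAA, the ROR element TAGGTCA or TGGGTCA, and the CRE TGACGTCA, all on both strands. Of 32851 windows of the genome, 7.15% held the E-box, 4.68% the E-prime-box, 3.38% the D-box, 6.45% the ROR element and 1.79% the CRE. Among the 9 genes, 3 held an E-box (Per1, Cry1, Tef), 2 an E-prime-box (Cry1, Nr1d1), 2 a D-box (Per1, Per3), 1 a ROR element (Arntl, 31 bases after its second start), and 0 a CRE. Clock, Nr1d2 and Dbp held none of these letters in their windows. As some genes had more than 1 window, these counts per gene cannot be set against the shares of single windows. The 5 windows with a match outside annotated exons are shown from 250 to 11 bases before the start, in reading direction, with matches in capitals. Those of Per1 (chr11:69098699-69098938, plus strand) and Tef (second start, chr15:81811164-81811403, plus strand) lie within introns of their own genes in GENCODE M21. That of Per3 (chr4:151044676-151044915, minus strand) lies within an intron of Camta1. Those of Cry1 (chr10:85185065-85185304, minus strand) and Nr1d1 (chr11:98775388-98775627, minus strand) lie in no annotated gene. A match describes the sequence and was not tested for binding.
Per1: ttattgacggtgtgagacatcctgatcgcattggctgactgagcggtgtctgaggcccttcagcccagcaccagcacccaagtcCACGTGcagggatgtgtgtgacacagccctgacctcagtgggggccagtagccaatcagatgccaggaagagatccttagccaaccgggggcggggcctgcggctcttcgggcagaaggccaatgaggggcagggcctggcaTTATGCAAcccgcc
Per3: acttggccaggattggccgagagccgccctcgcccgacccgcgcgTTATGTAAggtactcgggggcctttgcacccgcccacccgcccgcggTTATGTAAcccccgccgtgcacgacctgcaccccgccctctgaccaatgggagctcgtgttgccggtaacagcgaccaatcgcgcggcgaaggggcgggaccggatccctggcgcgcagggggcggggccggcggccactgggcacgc
Cry1: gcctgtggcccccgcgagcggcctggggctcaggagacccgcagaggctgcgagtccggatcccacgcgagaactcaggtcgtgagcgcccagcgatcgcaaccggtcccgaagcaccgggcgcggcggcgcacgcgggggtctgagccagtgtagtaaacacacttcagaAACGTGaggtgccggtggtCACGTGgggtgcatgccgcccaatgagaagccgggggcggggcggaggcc
Nr1d1: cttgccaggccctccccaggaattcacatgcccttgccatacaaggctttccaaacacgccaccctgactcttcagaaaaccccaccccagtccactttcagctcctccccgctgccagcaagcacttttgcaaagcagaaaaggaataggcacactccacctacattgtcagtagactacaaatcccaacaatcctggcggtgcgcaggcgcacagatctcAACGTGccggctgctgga
Tef: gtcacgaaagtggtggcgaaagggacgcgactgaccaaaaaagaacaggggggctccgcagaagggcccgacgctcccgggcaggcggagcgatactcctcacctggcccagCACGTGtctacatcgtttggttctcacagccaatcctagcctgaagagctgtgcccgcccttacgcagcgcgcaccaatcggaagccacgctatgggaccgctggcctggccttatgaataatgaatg

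**Figure D1:**
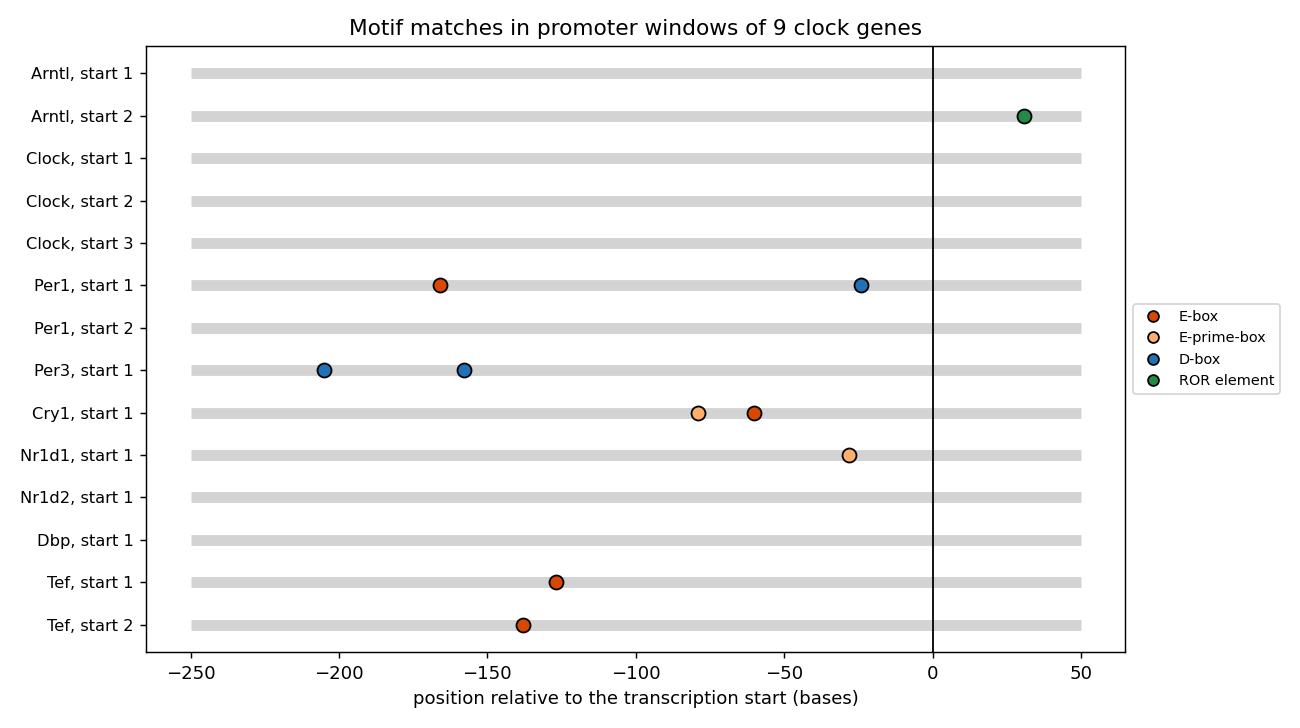
Motif matches in the 14 promoter windows of 9 clock genes, by position in bases relative to the transcription start (vertical line). Each grey bar is a window of 300 bases, and the E-boxes of Per1, Cry1 and Tef all lie before the start.

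The main difference was between tumors and the non-tumor colon of the same 12 weeks. In BSHlow mice 8 of the 10 clock genes fell in tumors, where 61.3% of the 15179 genes tested were called, 31.6% higher and 29.7% lower. In BSHhigh mice the same 8 genes fell, where 59.6% of 15653 genes were called, 30.8% higher and 28.8% lower. These were Clock, Per1, Per2, Per3, Nr1d1, Nr1d2, Dbp and Tef, while Arntl and Cry1 were not called. The median log2 fold change of the 10 genes was -1.69 in BSHlow and -1.41 in BSHhigh mice, against 0.05 and 0.04 for all genes tested.

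**Figure D2:**
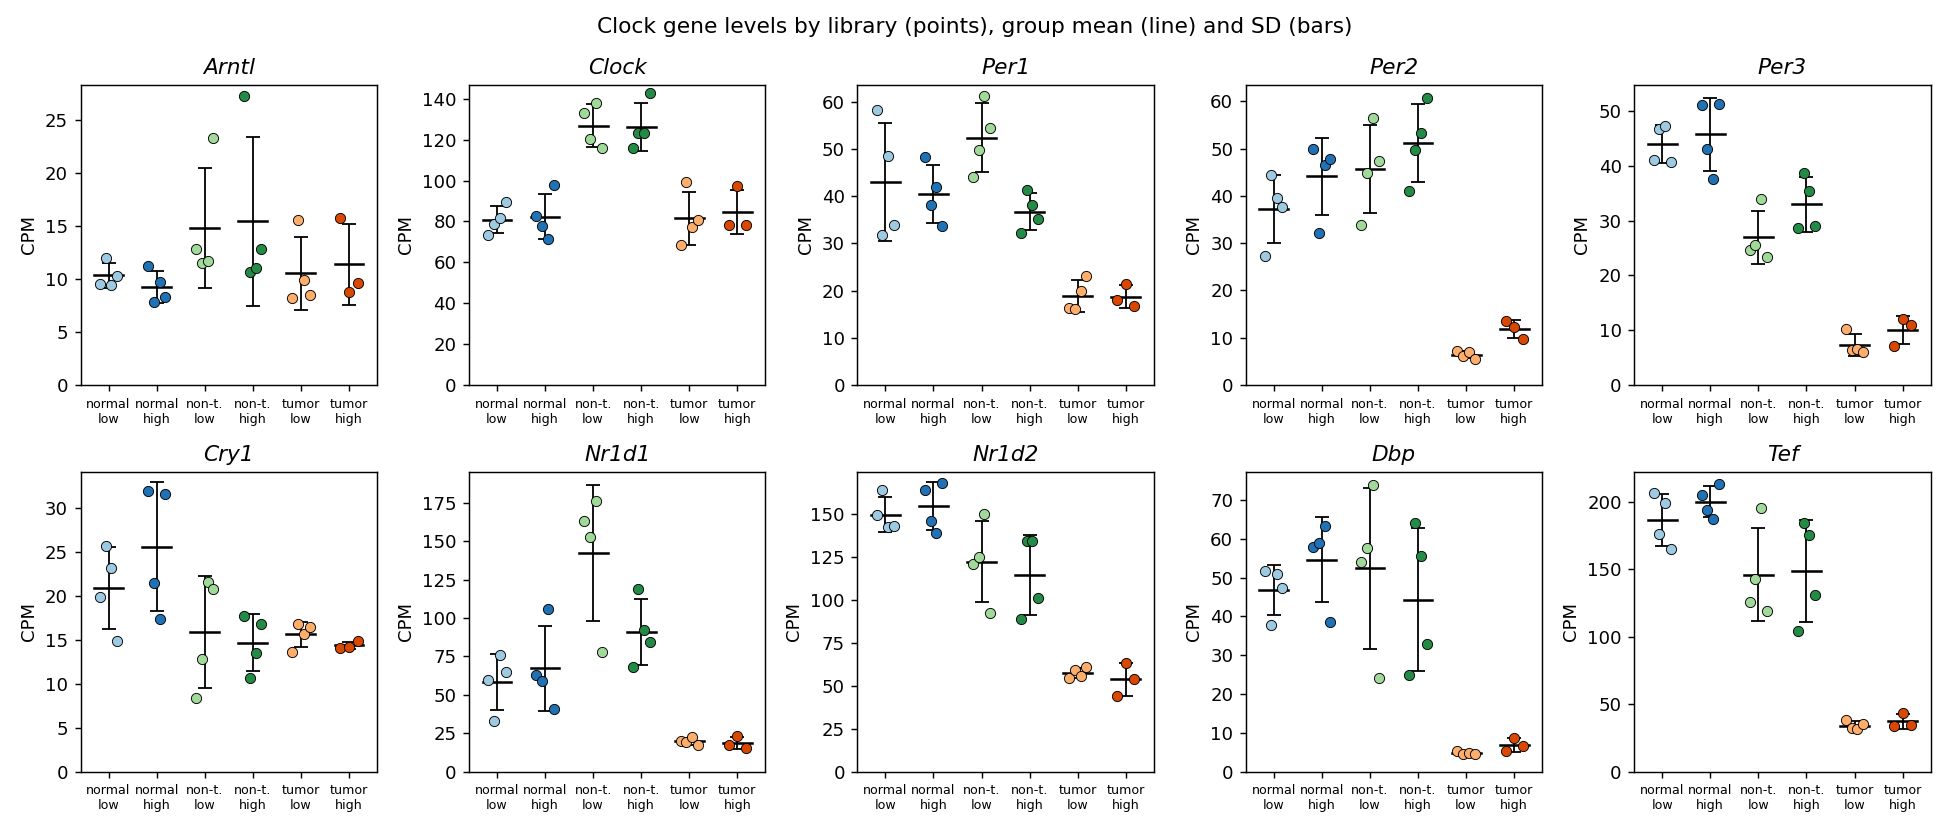
CPM of each clock gene in all 23 libraries (points), with the group mean (line) and SD (bars), for normal colon after 2 weeks and non-tumor (non-t.) colon and tumors after 12 weeks of BSHlow (low) or BSHhigh (high) colonization. For Dbp, all 7 tumors lie between 4.50 and 8.71 CPM, below each of the other 16 libraries.

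Arntl (ENSMUSG00000055116.8, chr7:113207465-113314126, plus strand) encodes BMAL1, an activator of the loop. In non-tumor colon it was at 12.8, 11.5, 11.7 and 23.3 CPM in BSHlow and at 27.3, 10.7, 11 and 12.8 CPM in BSHhigh mice. In tumors it was at 8.20, 15.6, 9.92 and 8.46 CPM in BSHlow and at 15.8, 8.76 and 9.63 CPM in BSHhigh mice. One non-tumor library of each colonization, replicate 4 of BSHlow and replicate 1 of BSHhigh, was far above the rest of its group, and tumors and non-tumor tissues overlapped. The log2 fold change in tumors was -0.52 (95% interval -1.21 to 0.16, edgeR adjusted p = 0.16) in BSHlow and -0.44 (-1.30 to 0.41, adjusted p = 0.331) in BSHhigh mice. Without replicate 2 of the BSHlow tumors, the highest of them, it was -0.78 in BSHlow mice and passed the test (edgeR adjusted p = 0.0463). Without replicate 4 of the BSHlow non-tumor colons it was -0.20 there, and without replicate 1 of the BSHhigh non-tumor colons -0.03 in BSHhigh mice, where it was -0.75 without replicate a and -0.28 without replicate b of the tumors, so the size of both differences rests on single libraries. Normal colon after 2 weeks held 9.48 to 12.0 CPM in BSHlow and 7.88 to 11.2 CPM in BSHhigh mice. In the order of the 6 group means of Arntl, all neighbours overlapped.

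Clock (ENSMUSG00000029238.11, chr5:76209868-76304792, minus strand), the partner of BMAL1, was steadier. Non-tumor colon held 133, 120.3, 138 and 116 CPM in BSHlow and 116, 123, 123 and 143 CPM in BSHhigh mice. The tumors held 68.5, 99.2, 77.3 and 80.7 CPM in BSHlow and 78.2, 97.1 and 78.3 CPM in BSHhigh mice. Every non-tumor library was above every tumor, and the 2-week normal colons (71.3 to 97.6 CPM) were within the range of the tumors. The fall in tumors was -0.66 on the log2 scale (SE 0.11, edgeR adjusted p = 0.000889) in BSHlow and -0.59 (SE 0.11, adjusted p = 0.00269) in BSHhigh mice.

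Of the inhibitors, Per1 (ENSMUSG00000020893.17, chr11:69095217-69109960, plus strand) encodes a period protein that is also induced by glucocorticoids. It was at 44.1, 49.9, 61.3 and 54.4 CPM in BSHlow and 32.3, 41.3, 38.2 and 35.2 CPM in BSHhigh non-tumor colon. BSHlow tumors held 16.3, 16.1, 20 and 23.1 CPM, and BSHhigh tumors 18, 21.4 and 16.8 CPM. The non-tumor colons of the 2 colonizations did not overlap, the tumors did, and all tumors were below all other libraries. Per1 fell in tumors, with a log2 fold change of -1.49 (SE 0.15, edgeR adjusted p = 4.75e-05) in BSHlow and -0.98 (SE 0.13, adjusted p = 0.000356) in BSHhigh mice.

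Per2 (ENSMUSG00000055866.9, chr1:91415982-91459324, minus strand) encodes another inhibitor of the BMAL1 and CLOCK pair. Its level was 33.9, 44.9, 56.4 and 47.4 CPM in BSHlow and 41.0, 49.6, 53.3 and 60.7 CPM in BSHhigh non-tumor colon. BSHlow tumors held 7.22, 6.11, 6.96 and 5.47 CPM, and BSHhigh tumors 13.6, 12.2 and 9.82 CPM. All 3 BSHhigh tumors were above all 4 BSHlow tumors, and both were far below the lowest of the other libraries, 27.2 CPM in BSHlow colon after 2 weeks. The fall in tumors was -2.84 (SE 0.17, edgeR adjusted p = 3e-06) in BSHlow and -2.12 (SE 0.17, adjusted p = 4.91e-05) in BSHhigh mice on the log2 scale.

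Per3 (ENSMUSG00000028957.12, chr4:151003652-151044665, minus strand), a period gene that is not required for the loop, was highest after 2 weeks, with 40.7 to 47.2 CPM in BSHlow and 37.6 to 51.2 CPM in BSHhigh mice. In 12-week non-tumor colon it was at 24.7, 25.6, 34.0 and 23.4 CPM in BSHlow and 28.6, 38.7, 35.4 and 29.0 CPM in BSHhigh mice. In tumors it was at 10.3, 6.47, 6.58 and 5.96 CPM in BSHlow and 7.19, 12.0 and 11 CPM in BSHhigh mice. Tumors were below all non-tumor libraries, and BSHlow and BSHhigh tumors overlapped because replicate 1 of the BSHlow tumors was apart from the other 3. Per3 fell in tumors, with a log2 fold change of -1.89 (SE 0.21, edgeR adjusted p = 6.96e-05) in BSHlow and -1.72 (SE 0.20, adjusted p = 0.000241) in BSHhigh mice.

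Cry1 (ENSMUSG00000020038.10, chr10:85131700-85185064, minus strand), a cryptochrome and the repressor that acts latest in the loop, did not follow the period genes. Tumors held 13.6 to 16.8 CPM in BSHlow and 14.1 to 14.8 CPM in BSHhigh mice, within the non-tumor range of 8.38 to 21.5 CPM in BSHlow and 10.6 to 17.7 CPM in BSHhigh mice. Its log2 fold change in tumors was -0.05 (95% interval -0.69 to 0.58) and -0.04 (-0.45 to 0.37), and its sign in BSHlow mice turned with limma-voom (0.04). Tumors of each colonization were closer to each other than the non-tumor samples, with an SD of 1.41 CPM against 6.38 CPM in BSHlow and 0.372 CPM against 3.23 CPM in BSHhigh mice.

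Of the nuclear receptors, Nr1d1 (ENSMUSG00000020889.11, chr11:98767932-98775333, minus strand) represses Arntl and lipid genes. BSHlow non-tumor colon held 163, 153, 176 and 77.8 CPM, and BSHhigh non-tumor colon 68.2, 119, 92.4 and 84.3 CPM. The tumors held 19.9, 19.3, 22.8 and 17.6 CPM in BSHlow and 17.5, 23.1 and 15.6 CPM in BSHhigh mice. The lowest non-tumor library of each colonization was the one in which Arntl was highest, and all 7 tumors were below the lowest other library, 32.9 CPM in BSHlow colon after 2 weeks. Nr1d1 fell in tumors, with a log2 fold change of -2.86 (SE 0.23, edgeR adjusted p = 1.28e-05) in BSHlow and -2.29 (SE 0.22, adjusted p = 9.9e-05) in BSHhigh mice. Its exons overlap those of Thra on the other strand, and the strand setting of the counting is not given in the sources used here, so its counts are uncertain to that extent. The same holds for Arntl with Gm45355, Dbp with Sphk2 and Tef with Gm17597.

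Nr1d2 (ENSMUSG00000021775.11, chr14:18204054-18239127, minus strand), the close relative of Nr1d1, was at 92.2 to 149.6 CPM in BSHlow and 88.8 to 134 CPM in BSHhigh non-tumor colon. Tumors held 54.7 to 60.8 CPM in BSHlow and 44.3 to 63.3 CPM in BSHhigh mice, with no overlap. The fall was -1.10 on the log2 scale in both colonizations (SE 0.13 and 0.19, edgeR adjusted p = 9.53e-05 and 0.0015).

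Among the outputs, Dbp (ENSMUSG00000059824.12, chr7:45705088-45710203, plus strand) is a direct target of the BMAL1 and CLOCK pair. Its level was 54.1, 57.5, 73.8 and 24.1 CPM in BSHlow and 25, 64.1, 55.5 and 32.8 CPM in BSHhigh non-tumor colon. BSHlow tumors held 5.4, 4.62, 4.87 and 4.50 CPM, and BSHhigh tumors 5.33, 8.71 and 6.72 CPM. Normal colon after 2 weeks held 51.7, 37.7, 51 and 47.2 CPM in BSHlow and 57.8, 58.8, 63.4 and 38.6 CPM in BSHhigh mice. Tumors lay far below all other libraries, and the lowest non-tumor levels were again in replicate 4 of BSHlow and replicate 1 of BSHhigh. In non-tumor colon the mean was 52.4 ± 20.7 CPM (SD, n = 4) in BSHlow and 44.3 ± 18.5 CPM (SD, n = 4) in BSHhigh mice, and in tumors 4.84 ± 0.401 CPM (SD, n = 4) and 6.92 ± 1.70 CPM (SD, n = 3). Dbp had the largest fall of the 10 genes in both colonizations, -3.44 (95% interval -4.13 to -2.75, edgeR adjusted p = 1.95e-05) in BSHlow and -2.69 (-3.54 to -1.84, adjusted p = 0.000493) in BSHhigh mice on the log2 scale. With any 1 library left out these values were between -3.68 and -3.24 and between -2.89 and -2.46.

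Tef (ENSMUSG00000022389.15, chr15:81802421-81826863, plus strand), a second PAR bZIP factor, was at 126, 143, 195 and 119 CPM in BSHlow and 104, 184, 175 and 131 CPM in BSHhigh non-tumor colon. Tumors held 38.1, 32.1, 31.6 and 35.2 CPM in BSHlow and 33.7, 43.7 and 34.9 CPM in BSHhigh mice. Tumors and non-tumor tissues did not overlap, and replicate 4 of BSHlow and replicate 1 of BSHhigh were the lowest of their non-tumor groups. Tef fell in tumors, with a log2 fold change of -2.11 (SE 0.16, edgeR adjusted p = 8.63e-06) in BSHlow and -2.0 (SE 0.22, adjusted p = 0.000194) in BSHhigh mice.

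**Figure D3:**
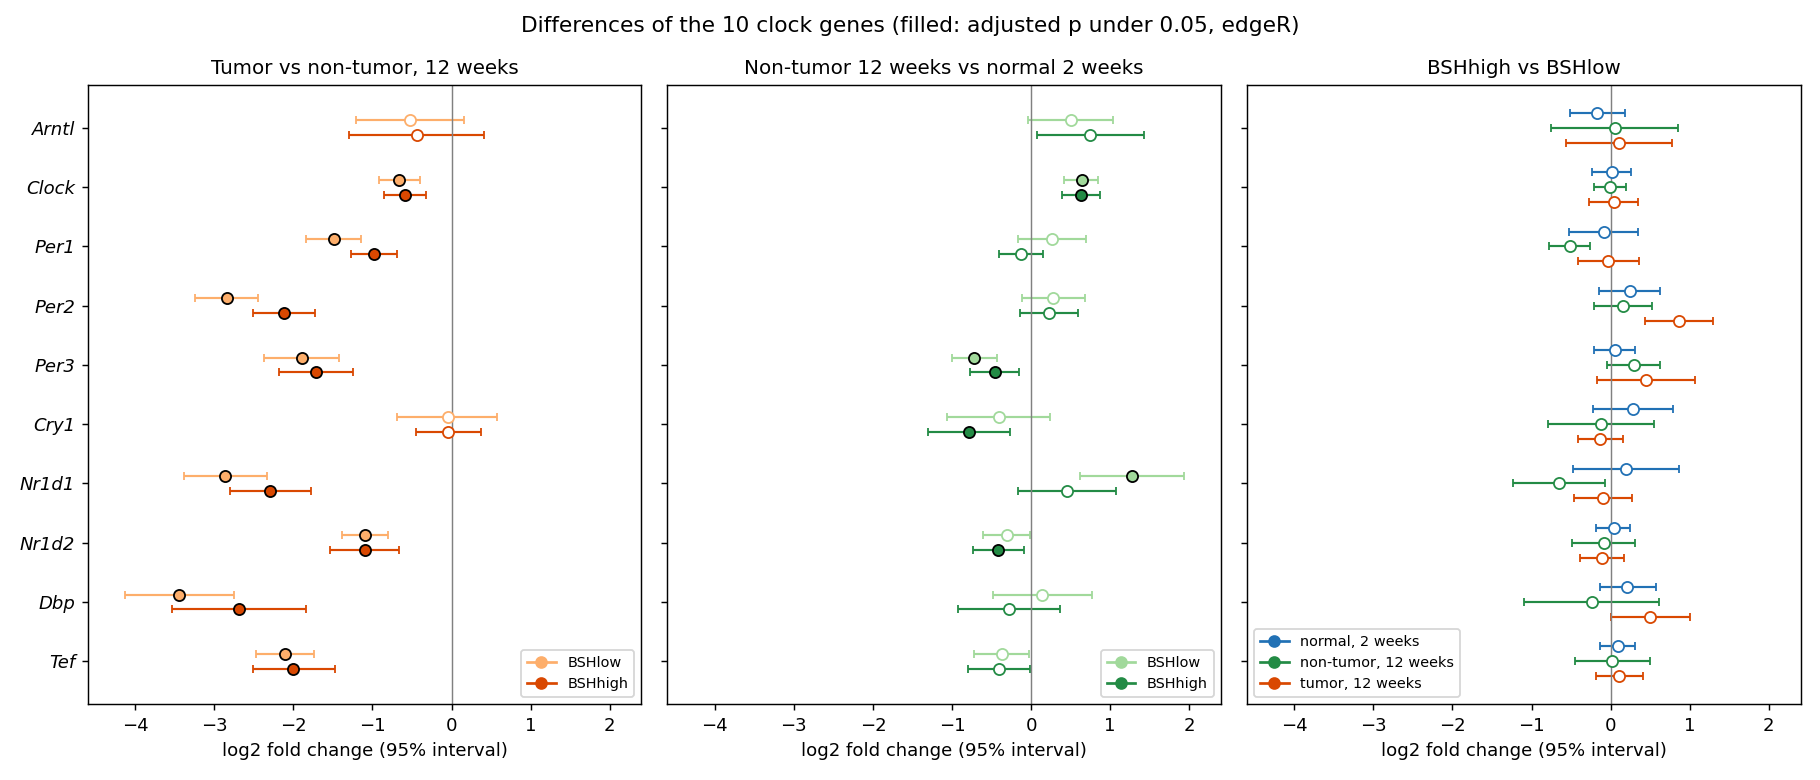
Log2 fold changes of the 10 clock genes with 95% intervals, for tumors against non-tumor colon, for 12-week non-tumor against 2-week normal colon, and for BSHhigh against BSHlow in each tissue. Filled points have an edgeR adjusted p under 0.05, and in the panel of BSHhigh against BSHlow 0 points are filled.

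Whether the fall in tumors depended on the colonization was tested with an interaction term over the 15 libraries of 12 weeks. It called 0 of the 10 clock genes with edgeR, where 0.991% of 16454 genes were called. By DESeq2, which called 420 genes in all, and by limma-voom the count was also 0 of 10. With edgeR, 1580 genes and 2 of the 10 (Per1 and Per2) had an unadjusted p under 0.05. The term was 0.51 for Per1 (95% interval 0.07 to 0.95, edgeR adjusted p = 0.41), 0.72 for Per2 (0.20 to 1.24, adjusted p = 0.263) and 0.76 for Dbp (-0.28 to 1.79, adjusted p = 0.715), where a positive value means a smaller fall in BSHhigh mice. The intervals of Per1 and Per2 lie above 0, but neither passed the adjustment over all genes.

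BSHhigh was then compared with BSHlow within each tissue, the question of the study. In tumors edgeR called 0 of the 10 clock genes, where 0.509% of 15325 genes were called, with 1946 genes and 1 of the 10 (Per2) at an unadjusted p under 0.05. DESeq2 called 1 of the 10, and 741 genes in all against 78 with edgeR, and limma-voom called 0 of the 10. Per2 was higher in all 3 BSHhigh tumors, by 0.87 on the log2 scale (95% interval 0.44 to 1.29), with an adjusted p of 0.0837 from edgeR, 0.00154 from DESeq2 and 0.00846 from edgeR when all 23 libraries shared a fit. Over all alternatives its adjusted p was between 0.00154 and 0.322. Dbp was 0.50 higher (0 to 1, edgeR adjusted p = 0.395), with replicate a of the BSHhigh tumors inside the BSHlow range, and between 0.31 (without replicate b of the BSHhigh tumors) and 0.66 (without replicate a) with any 1 library left out. Beside this, the tumors differed in cell markers, with genes called only in the list of differentiated colonocytes. Smooth muscle genes were higher in 6 of 7 cases and leukocyte markers in 4 of 4 tested. Epithelial markers were higher in 5 of 7 cases and genes of active WNT signalling in 1 of 5. Apc was higher by 1.04 (edgeR adjusted p = 0.14). The list of differentiated colonocytes summed to 629, 207 and 133 CPM in BSHhigh tumors. In BSHlow tumors it summed to 105, 134, 64.1 and 51 CPM, so the lowest BSHhigh tumor was inside the BSHlow range. Of these 4 markers Slc26a3 (log2 fold change 6.25, edgeR adjusted p = 0.0481) and Aqp8 (6.4, adjusted p = 0.0406) rose. BSHlow tumors held at most 0.491 CPM of Slc26a3 and 0.196 CPM of Aqp8, so the size of both changes is uncertain. BSHhigh tumors held 3.43 to 39.1 CPM and 2.43 to 18.4 CPM. Krt20, the most abundant in BSHhigh tumors, was at 22.0, 23.9, 30.2 and 10.8 CPM in BSHlow and at 456, 147 and 80.3 CPM in BSHhigh tumors (3.38, edgeR adjusted p = 0.0558), and Car1 had a log2 fold change of 0.00 (95% interval -1.16 to 1.16). The part of these markers in the level of Per2 was not tested.

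In non-tumor colon after 12 weeks edgeR called 0 of the 10 clock genes and 0 of 14933 genes in all (0%), with 1377 genes and 2 of the 10 (Per1, Nr1d1) at an unadjusted p under 0.05. DESeq2 called 169 genes, 1 of them a clock gene, and limma-voom called 0 of the 10. Per1 was lower in all 4 BSHhigh samples, by -0.52 on the log2 scale (95% interval -0.78 to -0.26), with an adjusted p of 0.327 from edgeR and 0.0203 from DESeq2, and between 0.0203 and 0.71 over all alternatives. Nr1d1 differed by -0.65 (-1.23 to -0.07, edgeR adjusted p = 0.51), and its groups overlapped through replicate 4 of BSHlow. In normal colon after 2 weeks edgeR called 0 of the 10, where 0.00727% of 13752 genes (1 gene) were called. At an unadjusted p under 0.05 were 935 genes and 0 of the 10 there. DESeq2 called 53 genes and 0 of the 10, and limma-voom 0 of the 10. The interaction of the BSH effect with week, over 16 libraries, called 0 of the 10 clock genes and 0 of 15532 genes in all (0%) with edgeR. There, 1135 genes and 0 of the 10 had an unadjusted p under 0.05, DESeq2 called 35 genes and 0 of the 10, and limma-voom 0 of the 10. The comparisons of tumor, of BSH and of week share samples, so their values are given side by side only.

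Non-tumor colon after 12 weeks differed from normal colon after 2 weeks in some clock genes. In BSHlow mice 3 of the 10 were called, where 43.1% of 14555 genes were called, and in BSHhigh mice 4 of the 10, where 51.1% of 14638 genes were called. These counts are near the shares of all genes, and DESeq2 called 3 and 6 of the 10, with 6624 and 7650 genes called by it in all. The counts were 5 of 10 in BSHlow mice without replicate 3 of the non-tumor colons, and 2 of 10 in BSHhigh mice without replicate 1 or replicate 4 of the normal colons. Clock rose by 0.64 (SE 0.10, edgeR adjusted p = 0.000733) in BSHlow and 0.63 (SE 0.11, adjusted p = 0.00116) in BSHhigh mice, and all 8 samples of 12 weeks were above all 8 of 2 weeks. Per3 fell, by -0.72 (SE 0.13, edgeR adjusted p = 0.00175) in BSHlow and -0.46 (SE 0.14, adjusted p = 0.0205) in BSHhigh mice, and the BSHhigh groups overlapped. Without replicate 1 or replicate 4 of the BSHhigh normal colons the latter was -0.41 and no longer called (edgeR adjusted p = 0.0551 and 0.0536).

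In BSHlow mice Nr1d1 rose from 59.7, 32.9, 75.9 and 64.9 CPM after 2 weeks to its 12-week level, by 1.28 (SE 0.29, edgeR adjusted p = 0.00684). Every 12-week sample of it was above every 2-week sample. In BSHhigh mice, where the 2-week samples held 63.1, 58.9, 106 and 40.8 CPM, the groups overlapped and the difference was 0.45 (95% interval -0.16 to 1.07, edgeR adjusted p = 0.193). Left without replicate 3 of the BSHhigh normal colons, the highest of them, it was 0.76 and was called (edgeR adjusted p = 0.0153), and it was 0.27 without replicate 2 of the non-tumor or replicate 4 of the normal colons (adjusted p = 0.459 and 0.404). In BSHhigh mice Cry1 (-0.79, SE 0.23, edgeR adjusted p = 0.0172) and Nr1d2 (-0.42, SE 0.15, adjusted p = 0.0389) fell as well. Nr1d2 was called no more when any 1 of 5 libraries was left out, with adjusted p up to 0.0882 (edgeR), when replicates 1 and 4 of the non-tumor colons and 1, 2 and 4 of the normal colons were left out in turn. In BSHlow mice Tef and Nr1d2 were called only without replicate 3 of the non-tumor colons (-0.53 and -0.41, edgeR adjusted p = 0.00902 and 0.0363), and Dbp only without replicate 4 (0.39, adjusted p = 0.0498). In BSHhigh mice Tef was called without replicate 2 (-0.56, edgeR adjusted p = 0.0217) or replicate 3 (-0.53, adjusted p = 0.0377) of the non-tumor colons. With all samples of these groups it was called by DESeq2 (-0.42, adjusted p = 0.0356) and by edgeR with all 23 libraries in 1 fit (-0.43, adjusted p = 0.0351), and over all alternatives its adjusted p was between 0.0217 and 0.138. Arntl differed by 0.75 in BSHhigh mice (95% interval 0.07 to 1.43, edgeR adjusted p = 0.0642), was called by DESeq2 (0.74, adjusted p = 0.0399) and was at 0.29 without replicate 1 of the non-tumor colons. Mice of 12 weeks were also older and longer on the diet and the colonization, and these cannot be told apart.

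The tissues of 2 and 12 weeks also differed in their cell markers. All 7 smooth muscle genes rose in both colonizations, and their summed level was 53.5, 176, 51.6 and 46.2 CPM (BSHlow) and 7.45, 151, 209 and 50.5 CPM (BSHhigh) after 2 weeks. After 12 weeks it was 1935, 8789, 4100.2 and 1569 CPM in BSHlow and 4496, 3504, 4105 and 3407 CPM in BSHhigh non-tumor colon, with Tagln the most abundant. Of the 4 markers of differentiated colonocytes, 2 (Car1 and Krt20) fell and 0 rose in both colonizations, while Slc26a3 (0.07 and -0.42) and Aqp8 (0.42 and -0.65) were not called. Car1, a carbonic anhydrase of colonocytes, was at 6595 to 18577 CPM after 2 weeks and at 60.1 to 707 CPM in 12-week non-tumor colon. Of 7 epithelial markers, 3 fell and 0 rose in BSHlow mice, and 4 fell and 0 rose in BSHhigh mice, with Cdx2 among those that fell. Cdx2, the intestinal transcription factor whose promoter drives the Cre, was at 307 to 418 CPM after 2 weeks and at 6.34 to 60.5 CPM in 12-week non-tumor colon. Markers of enteric neurons and glia rose in 5 of 5 tested genes in BSHlow and 4 of 4 in BSHhigh mice. Endothelial markers rose in 2 of 3 genes in BSHlow and 3 of 3 in BSHhigh mice. Of 5 leukocyte markers, 2 rose and 0 fell in BSHlow mice, and 2 rose and 1 fell in BSHhigh mice. These counts stand beside 43.1% and 51.1% of all genes called. The part of these differences in the clock gene levels was not tested.

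The replicates of 1 group differed more in some clock genes than in others. Within groups, the SD of log2 CPM was 0.45 for Dbp, 0.44 for Nr1d1, 0.42 for Arntl and 0.38 for Cry1, at percentiles 74.2, 73.4, 72.3 and 68.9 among 14401 genes with a mean of at least 1 CPM. It was 0.16 for Clock (percentile 27.9), against a median of 0.24 for all these genes. In 12-week non-tumor colon the log2 difference of Dbp and Arntl was 2.07, 2.31, 2.65 and 0.05 in BSHlow and -0.12, 2.57, 2.33 and 1.35 in BSHhigh mice. Replicate 4 of BSHlow and replicate 1 of BSHhigh stood apart from their groups in Arntl, which was high. They also had the lowest Dbp and the lowest difference of their groups. In BSHhigh mice replicate 4 was the next lowest in both, with 32.8 CPM of Dbp. In tumors the difference was -0.59, -1.73, -1.01 and -0.89 in BSHlow and -1.54, -0.01 and -0.51 in BSHhigh mice, and after 2 weeks between 1.64 and 2.88 in all 8 libraries. Every tumor was below every 2-week library, while the 2 libraries that stood apart were the lowest of the non-tumor libraries. Replicate 1 of BSHhigh was below the highest tumor, and replicate 4 of BSHlow was just above it. With both of them left out, an alternative chosen after seeing the data, edgeR again called 0 of 10 clock genes between BSHhigh and BSHlow non-tumor colon.

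**Figure D4:**
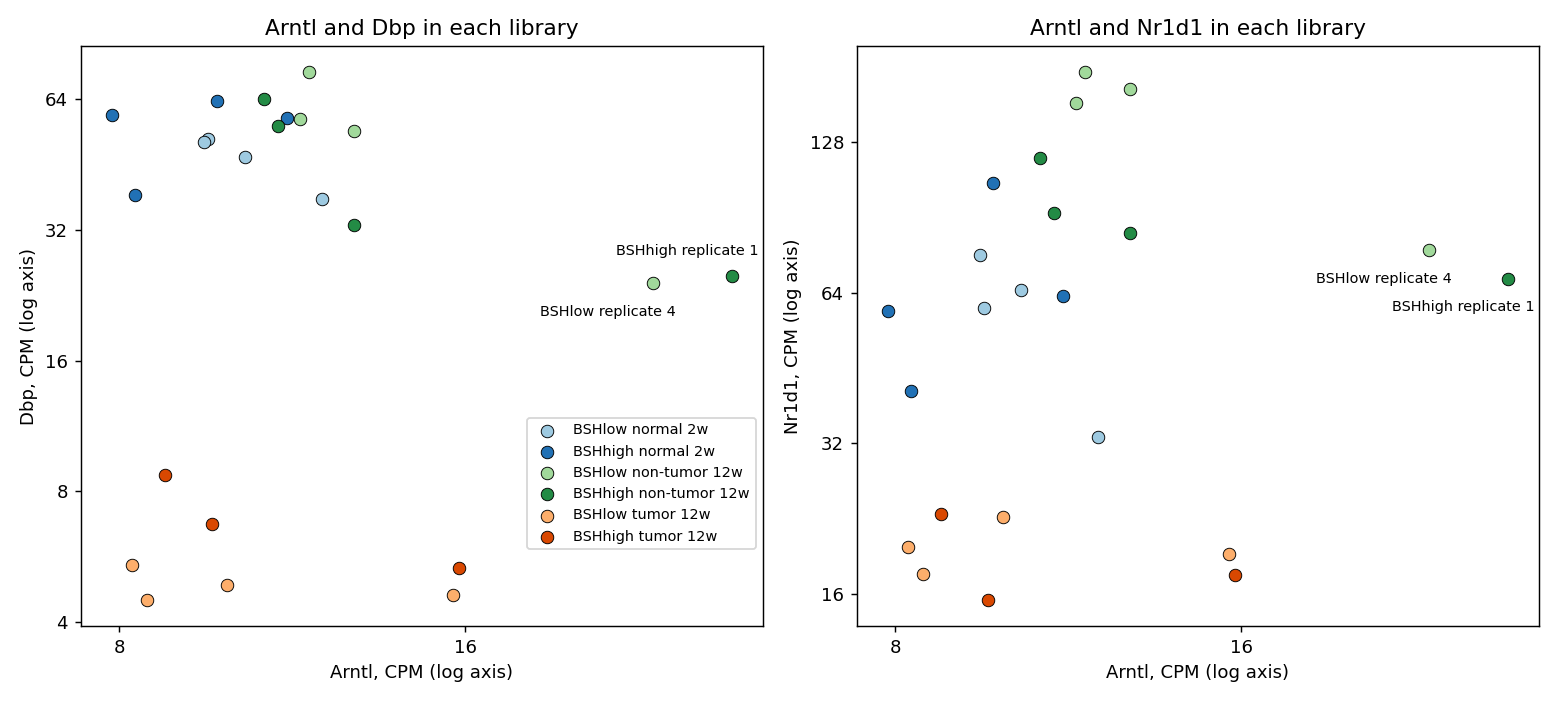
Arntl CPM against Dbp CPM and against Nr1d1 CPM in each of the 23 libraries, on log axes, with the group as color. The marked non-tumor libraries have the highest Arntl, 23.3 and 27.3 CPM, and the lowest Dbp of the non-tumor libraries, 24.1 and 25 CPM.

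To describe this spread, log2 CPM was taken as the deviation from the mean of its own group, over the 23 libraries, which share scaling and colonization groups. Pearson's r of Arntl was -0.74 with Dbp, -0.72 with Tef, -0.67 with Nr1d2 and 0.76 with Npas2, the gene that can stand in for Clock. It was -0.52 with Per3, -0.46 with Nr1d1 and 0.37 with Cry1, and near 0 or low with Clock (-0.08), Per2 (0.01) and Per1 (-0.25). Without the 2 libraries that stood apart, r with Dbp, Tef, Nr1d2 and Npas2 was -0.40, -0.47, -0.32 and 0.61 over 21 libraries, so these relations rest in part on them. Likewise r was -0.50 with Per3, -0.12 with Nr1d1, 0.12 with Cry1, 0.23 with Clock, 0.28 with Per2 and -0.27 with Per1. In non-tumor colon r of Arntl with Dbp was -0.90 over 8 libraries, in tumors -0.68 over 7, and after 2 weeks -0.02 over 8. The genes most like Arntl were Sdhd, 1110059E24Rik, Ak4, Prkab1 and Pgm2 (r from 0.83 to 0.81), and the most opposite were Olfr78, Gm11518, Cma1, Hoxd12 and Il1rl2 (-0.82 to -0.74). Without the 2 libraries these were 0.71 to 0.80 and -0.65 to -0.34, so the latter rest in large part on them. The genes most like Dbp were Slc2a5, Rere, Mettl7a3, Bbs2 and Madd (0.82 to 0.79), and the most opposite Gm10053, Btnl7-ps, Cycs, Pdhb and Hsd17b12 (-0.87 to -0.84), and without the 2 libraries 0.64 to 0.73 and -0.77 to -0.63. Nr1d1 had an r of 0.80 with Dbp, and 0.69 without the 2 libraries, while r of Dbp was 0.04 with Clock and 0.00 with Per2 (-0.31 and -0.16 without the 2 libraries). These are descriptions of 23 samples with no test.

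The other genes of the clock did not move in 1 direction in tumors. Of 15 tested in BSHlow mice, 5 rose and 5 fell, where 31.6% of all genes tested rose and 29.7% fell. Of 15 in BSHhigh mice, 6 rose and 5 fell, where 30.8% of all genes rose and 28.8% fell. These counts are near the shares of all genes. Ciart, a repressor of the BMAL1 and CLOCK pair, fell (-1.72 and -1.31 on the log2 scale, edgeR adjusted p = 0.00768 and 0.0412), and Bhlhe41 fell as well (-2.01 and -1.18). Nfil3, which binds the D-box as a repressor and so opposes Dbp and Tef, rose by 2.37 and 2.43 (edgeR adjusted p = 0.00097 and 0.00115). Csnk1e, a kinase of the period proteins, rose by 2.46 and 2.23 (edgeR adjusted p = 2.55e-07 and 2.5e-05), and its relative Csnk1d by 0.29 and 0.31. Timeless (1.41 and 1.26) and Fbxl21 (2.45 and 2.49) rose in both colonizations, and Rora in BSHhigh mice (0.70).

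Hlf, the remaining PAR bZIP factor, fell in tumors, by a log2 fold change of -4.39 in BSHlow and -1.11 in BSHhigh mice. It was at 7.27, 11.5, 9.61 and 3.81 CPM in BSHlow and at 4.06, 3.92, 4.91 and 3.74 CPM in BSHhigh non-tumor colon. The tumors held 0.589, 0.0513, 0.477 and 0.391 CPM in BSHlow and 2.69, 1.83 and 1.29 CPM in BSHhigh mice. The tumors of the 2 colonizations did not overlap, and the interaction passed the test for Hlf alone of the 15 other clock genes tested (3.28, edgeR adjusted p = 0.0261). That count of 1 went to 0 with limma-voom, without both libraries that stood apart, and without any 1 of 9 libraries. These were replicates 2 and 3 of the BSHlow and 1, 2, 3 and 4 of the BSHhigh non-tumor colons, replicate 4 of the BSHlow tumors and replicates a and b of the BSHhigh tumors. Between BSHhigh and BSHlow within a tissue, edgeR called 0 of these other clock genes, with 3 in tumors, 2 in non-tumor colon and 2 after 2 weeks at an unadjusted p under 0.05. Over all genes, 1946, 1377 and 935 had such a p in these tissues. DESeq2 called 2 and the fit of all 23 libraries 3 in tumors, and limma-voom 0, and in the other tissues DESeq2 and limma-voom called 0. Between 12 and 2 weeks 6 rose and 1 fell of 14 in BSHlow mice, and 4 rose and 3 fell of 14 in BSHhigh mice. As 43.1% and 51.1% of all genes tested were called there, the numbers called in all are near those shares. In BSHlow mice 4 were called in all without replicate 2 of the non-tumor or replicate 1 or 2 of the normal colons. Rora (1.80 and 1.10), Bhlhe40 (0.57 and 0.27), Bhlhe41 (2.47 and 2.75) and Hlf (1.99 and 1.51) were higher in both colonizations. Npas2 (0.64) and Csnk1e (0.32) rose and Btrc (-0.47) fell in BSHlow mice, and Cry2 (-0.90) fell in BSHhigh mice.

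Of 8 genes known as clock outputs, 1 rose and 2 fell in tumors of BSHlow mice, and 1 rose and 3 fell in BSHhigh mice. In these comparisons 61.3% and 59.6% of all genes tested were called. Usp2, a deubiquitinase that cycles in many organs, fell (-2.72 and -2.32, edgeR adjusted p = 1.94e-05 and 8.45e-05), and Tsc22d3 fell as well (-1.66 and -1.15). Tspan4 rose by 0.98 and 0.94, and Cdkn1a, a cell cycle inhibitor, fell in BSHhigh mice (-0.82). Between 12 and 2 weeks 3 rose and 3 fell in BSHlow mice, and 2 rose and 4 fell in BSHhigh mice, with Usp2 lower in both (-1.02 and -0.62). The share of all genes called between these weeks was 43.1% in BSHlow and 51.1% in BSHhigh mice. Genes induced by glucocorticoids, hormones that also follow the day, were lower in tumors in 5 of 5 cases in both colonizations, with Fkbp5 at -3.06 and -1.99 and Zbtb16 at -3.73 and -3.21 on the log2 scale. Among all genes tested, 29.7% and 28.8% were lower there, but the list was chosen with earlier results of these data known. Tsc22d3 is on this list and on that of the clock outputs, so it is counted in both. The summed level of the 5 genes was 417, 599, 658 and 1246 CPM in BSHlow and 498, 355, 402 and 329 CPM in BSHhigh non-tumor colon, where Sgk1 and Fkbp5 in turn had the highest mean. It was 133, 107, 112 and 185 CPM in BSHlow and 175, 116 and 99.7 CPM in BSHhigh tumors. Of the non-tumor colons, replicate 4 of BSHlow had the highest sum. It held 759.7 CPM of Sgk1, against 94.7 to 243 CPM in the other 3 BSHlow non-tumor colons. It is also a library with high Arntl and low Dbp. Between BSHhigh and BSHlow non-tumor colon edgeR called 0 of the 5, with 4 of them and 1377 genes in all at an unadjusted p under 0.05. All 5 log2 fold changes were negative, from -1.77 (Sgk1) to -0.36 (Klf9), with Zbtb16 at -1.41. The value of Sgk1 rests in part on replicate 4 of BSHlow, while the groups did not overlap for Zbtb16. The part of these genes in the clock gene levels, that of Per1 included, was not tested. Between 12 and 2 weeks 3 of these genes rose and 0 fell in BSHlow mice, and 1 rose and 2 fell in BSHhigh mice. Of 5 immediate early genes, which respond to handling and stimulation, 2 rose (Egr1, Junb) and 1 fell (Fos) in BSHlow tumors, and edgeR called 0 in BSHhigh tumors, with 1 at an unadjusted p under 0.05. Between 12 and 2 weeks Fosb rose in BSHhigh mice (2.10), and edgeR called 0 in BSHlow mice, with 1 at an unadjusted p under 0.05.

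**Figure D5:**
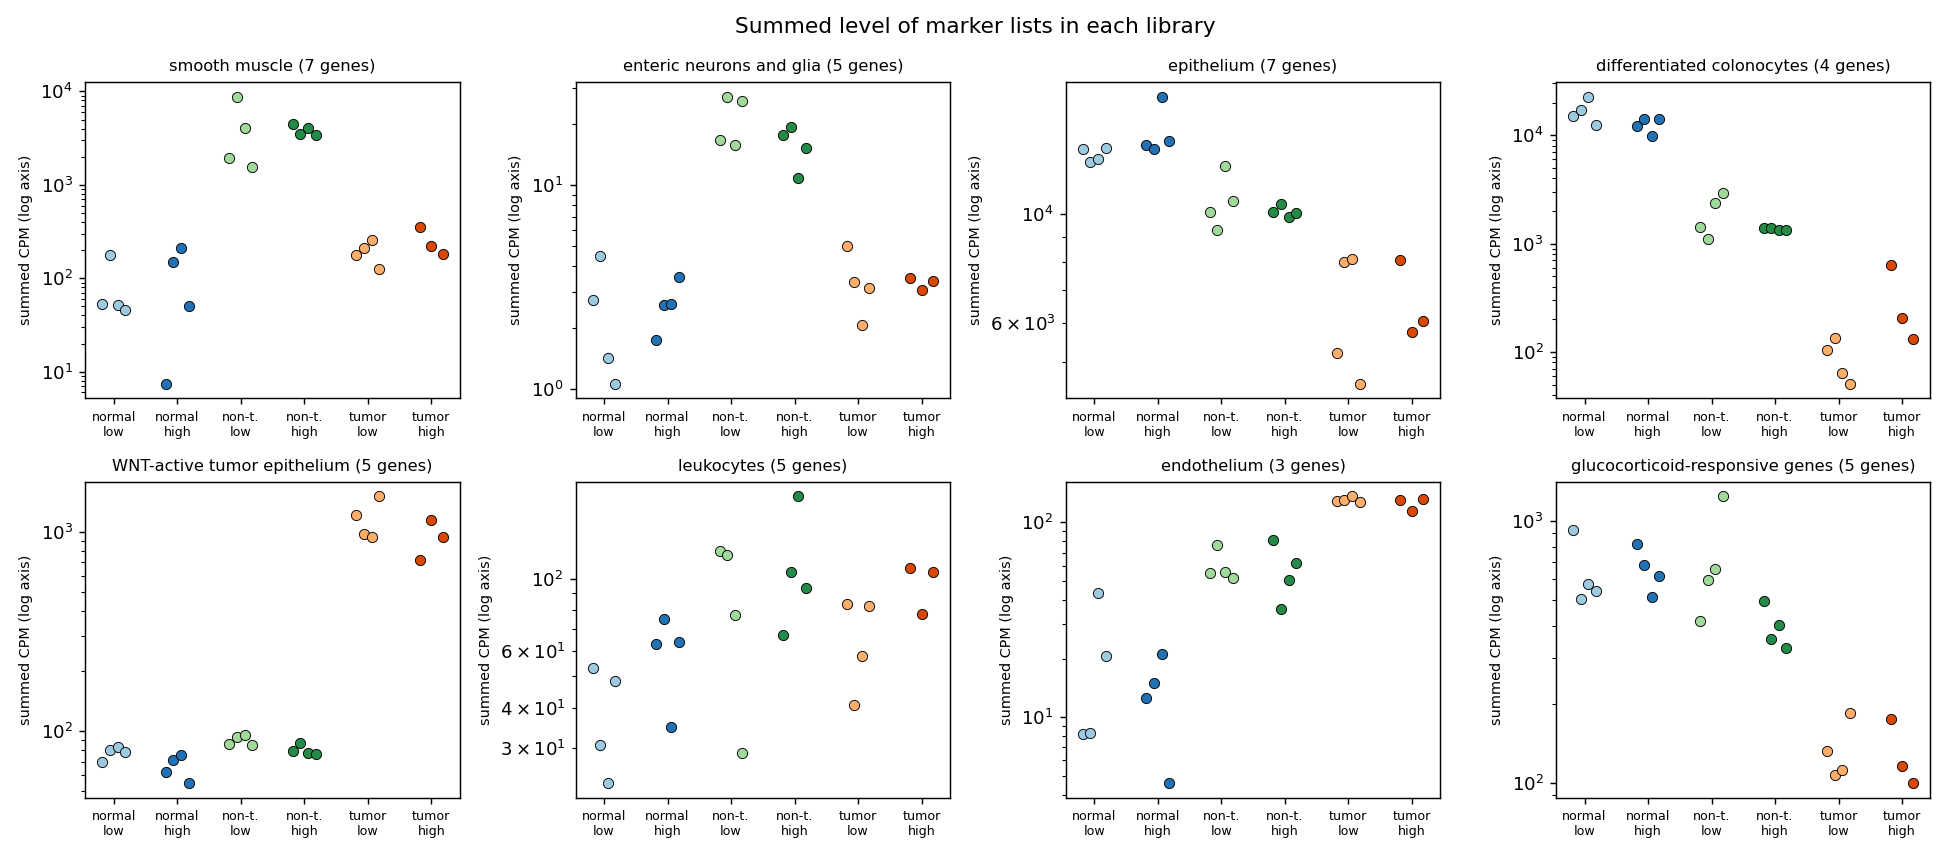
Summed CPM of 8 marker lists in each library, on log axes, by tissue and colonization (low, BSHlow; high, BSHhigh). Smooth muscle is at 125 to 351 CPM in tumors and at 7.45 to 209 CPM in normal colon after 2 weeks, against 1569 to 8789 CPM in 12-week non-tumor (non-t.) colon.

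Tumors and non-tumor colon also differed in cell markers, whose part in the clock gene levels was not tested. Here too, 61.3% of all genes tested were called in BSHlow and 59.6% in BSHhigh mice. All 7 smooth muscle genes fell in tumors in both colonizations, and their summed level was 176, 209.6, 256 and 125 CPM in BSHlow and 351, 221 and 181 CPM in BSHhigh tumors. In normal colon after 2 weeks these sums were 7.45 to 209 CPM, a range that overlapped that of the tumors. Markers of enteric neurons and glia, led by Uchl1 over all libraries, fell in 5 of 5 genes in both colonizations, and Sox10 had 0 counts in 6 of the 7 tumors. Their sums were 10.9 to 27.2 CPM in non-tumor colon, 2.05 to 5.01 CPM in tumors and 1.06 to 4.50 CPM after 2 weeks.

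Epithelial markers, led by Krt8, were present in all libraries, with sums of 9279 to 12559.7 CPM in non-tumor colon, 4513 to 8106 CPM in tumors and 12801 to 17363 CPM after 2 weeks. In tumors 6 of 7 fell and 1 (Krt18) rose in BSHlow mice, and 4 fell and 1 rose in BSHhigh mice. Markers of differentiated colonocytes fell in 4 of 4 genes in BSHlow and 2 of 4 in BSHhigh tumors, where their sums were 51 to 134 CPM and 133 to 629 CPM against 1105 to 2940.0 CPM in non-tumor colon. By group mean the most abundant of them was Car1 in BSHlow tumors, Krt20 in BSHhigh tumors and BSHhigh non-tumor colon, and Slc26a3 in BSHlow non-tumor colon. Slc26a3 and Aqp8 had 0 counts in 1 BSHlow tumor each. Genes of active WNT signalling, led by Nkd1 in tumors and by Sox9 in non-tumor colon, rose in 5 of 5 cases in both, from 76.8 to 95.9 CPM in non-tumor colon to 717 to 1500.1 CPM in tumors. Endothelial markers, of which Cdh5 had the highest mean in BSHlow tumors and Pecam1 in the other groups of 12 weeks, rose in 2 of 3, with sums of 36.1 to 81.1 CPM in non-tumor colon and 115 to 136 CPM in tumors. Leukocyte markers, led by Ptprc, went both ways, 2 higher and 2 lower of 5 in BSHlow and 2 higher and 1 lower in BSHhigh tumors, with sums of 29.1 to 179 CPM in non-tumor colon and 40.7 to 108 CPM in tumors.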

How the data were processed

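RNA of 23 colon and colon tumor samples in 6 groups was analysed. Per the labels and the methods of the study, libraries were stranded (total RNA by the labels, mRNA by the methods), and reads were trimmed with Cutadapt and aligned to mm10 with STAR. The authors deposited expected counts per gene from RSEM, which are not normalized. Picard is also listed, and versions and the strand setting of RSEM are not given in the sources used here. Gene identifiers matched GENCODE M21 in all of 55449 cases, and 1 row with a text cell was left out. Of the deposited expected counts, 4.24% were not whole. The 3 columns of BSHhigh tumors were assigned because they held the values that the study lists for that group in 1996 of 1997 rows at hand, the other being the row with a text cell.

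Expected counts were rounded, and edgeR 4.0.16 under R 4.3.3 fitted quasi-likelihood models (TMM, filterByExpr, Benjamini-Hochberg adjustment over all genes tested, threshold 0.05), with only the groups compared in each fit. Fits with an interaction term took the 15 libraries of 12 weeks or the 16 libraries without tumors. The 95% intervals use the t quantile at the degrees of freedom of edgeR. Between the replicates of a group, chi-square per degree of freedom was 16.6 to 126 in 33 pairs, so no library was taken as a repeat of another. It cannot show whether the libraries came from separate mice. Depth was 12401388 to 17903008 counts per library. Alternatives were DESeq2 1.42.0, limma-voom (limma 3.58.1), RLE scaling, no filter, CPM over 1 in 3 libraries, all 23 libraries in 1 fit, an absolute log2 fold change over 1 as well, a block for the replicate number, and each library left out in turn. Tests were checked on simulated counts. Log2 CPM for the relations within groups used a prior count of 2. Named were all 10 members, and of the other lists those called, except some genes that are not reported here. The 5 genes with the highest and the 5 with the lowest r were named among genes with a mean of at least 1 CPM. The members and lists were chosen with earlier results of these data known. Promoter sequences are from RefSeq on GRCm38.p6. Sequences were read and figures drawn in Python 3.11.15 with pandas 2.3.3, numpy 2.4.6 and matplotlib 3.10.9.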

Additional observations from a re-analysis of the deposited data

Results flagged for a closer look

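In 3 of 55 groups of 4 values, the highest sample was far from the others by the test of Dixon, which chance alone does in about 1 in 20 groups. These were Arntl in replicate 4 of the BSHlow non-tumor colons (23.3 CPM, the other 3 at 11.5 to 12.8 CPM), Arntl in replicate 1 of the BSHhigh non-tumor colons (27.3 CPM, the other 3 at 10.7 to 12.8 CPM) and Per3 in replicate 1 of the BSHlow tumors (10.3 CPM, the other 3 at 5.96 to 6.58 CPM). Dbp and the log2 difference of Dbp and Arntl were tested in the same way and were not flagged.

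The tumor effect differed between the colonizations for Hlf, with an interaction of 3.28 on the log2 scale (edgeR adjusted p = 0.0261). This call was lost with limma-voom, without both libraries that stood apart, and with 1 of several libraries left out, as given above. The tumor effect also differed for 3 markers of differentiated colonocytes, Slc26a3 (6.82, edgeR adjusted p = 0.00595), Aqp8 (7.05, adjusted p = 0.0227) and Krt20 (3.40, adjusted p = 0.0191). Each of these 4 genes was higher in all 3 BSHhigh tumors than in all 4 BSHlow tumors. Slc26a3 and Aqp8 were close to 0 CPM in BSHlow tumors, so the size of their terms is uncertain.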

How the results depend on the processing

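Over 352 further fits, the 23 differences of clock genes that were called kept their direction. In 334 fits they also stayed past the threshold, and in 18 they did not. The 67 differences that were not called gave 1104 like results, 14 past the threshold and 90 of the other sign, in 28 gene comparisons with small differences. With DESeq2, 1 clock gene was called between BSHhigh and BSHlow in tumors and 1 in non-tumor colon, of 741 and 169 genes called by it in all, and in tumors 1 was called with all 23 libraries in 1 fit, in place of 0. Between 12 and 2 weeks in BSHhigh mice DESeq2 called 6 of 10 in place of 4, and 7650 genes in all in place of 7476. The cause was not tested. With the fold limit as well, 1 of 10 was called between 12 and 2 weeks in BSHlow and 0 in BSHhigh mice, since most of these changes are under that limit, and 7 and 6 between tumors and non-tumor colon. With 1 library left out, the counts between 12 and 2 weeks were 3 to 5 and 2 to 5, and between tumors and non-tumor colon 8 to 9 and 8.

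The labels number the replicates, but same-numbered samples did not deviate together (r from -0.22 to 0.32), so the numbers were not taken as pairs. With the replicate block 8 of 10 were called between BSHlow tumors and non-tumor colon, 3 and 3 between 12 and 2 weeks and 0 between BSHhigh and BSHlow in non-tumor and in normal colon, and Cry1 in BSHlow tumors turned to 0.04. In BSHhigh mice the block ended the calls of Per3 (adjusted p = 0.0681, edgeR) and Nr1d2 (0.0832) between 12 and 2 weeks and added Arntl (0.65, adjusted p = 0.0407). The numbers over the BSHhigh tumors stand under repeated BSHlow names and were not taken as theirs, so no block was fitted there.

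Signs turned for Cry1 in BSHlow tumors with limma-voom (0.04). For the tumor interaction of Cry1 they turned with DESeq2 (-0.02), RLE scaling (-0.01), limma-voom (-0.05), no filter (-0.01), all 23 libraries in 1 fit (0) and without both libraries that stood apart (-0.07, chosen after seeing the data). Without both they also turned for Arntl between the non-tumor colons (-0.05) and for Per2 in the interaction with week (0.03). With 1 library left out, signs turned in these ranges of log2 fold change. BSH in tumors: Arntl -0.20 to 0.35, Clock -0.06 to 0.15, Per1 -0.12 to 0.09, Nr1d1 -0.26 to 0.01, Nr1d2 -0.23 to 0.01, Tef 0.00 to 0.18. BSH in non-tumor colon: Arntl -0.37 to 0.36, Clock -0.07 to 0.03, Cry1 -0.32 to 0.05, Nr1d2 -0.21 to 0.02, Tef -0.10 to 0.19. BSH after 2 weeks: Clock -0.07 to 0.08, Per1 -0.22 to 0.08, Per3 -0.01 to 0.13, Nr1d1 -0.11 to 0.38, Nr1d2 0.00 to 0.08. Tumors: Cry1 -0.26 to 0.13 in BSHlow and -0.17 to 0.06 in BSHhigh mice. Dbp between 12 and 2 weeks in BSHlow mice: -0.06 to 0.39. Tumor interaction: Arntl -0.26 to 0.49, Clock -0.03 to 0.18, Cry1 -0.17 to 0.22, Nr1d2 -0.12 to 0.13, Tef -0.06 to 0.23. Interaction with week: Arntl -0.19 to 0.54, Clock -0.08 to 0.08, Per2 -0.19 to 0.06, Tef -0.17 to 0.12. The cause was not tested.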
